A study of Rattus norvegicus with 6 samples.

Results

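The genes described here are 5 core genes of the circadian clock, Per1, Per2, Dbp, Nr1d1 and Arntl (also named Bmal1), in rat femur. They were chosen by Ensembl gene ID, as ENSRNOG00000007387 for Per1, ENSRNOG00000020254 for Per2, ENSRNOG00000021027 for Dbp, ENSRNOG00000009329 for Nr1d1 and ENSRNOG00000014448 for Arntl. All 5 IDs were found among the 32545 gene rows of the count table, and all 5 were among the 13431 genes with enough reads to be tested. The symbols came with the choice of genes. The rat gene table at hand holds all 5 symbols, with Arntl listed as Bmal1, but pairs 0 Ensembl IDs with a symbol. The pairs were therefore neither supported nor contradicted by an annotation, and each level below is that of the ID given here.

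The series is about chronic sleep deprivation and bone formation in growing rats. Polyadenylated RNA of femur from Wistar rats, an outbred laboratory strain, was sequenced in 3 control libraries and 3 libraries of the CSD group, as the sample labels call chronic sleep deprivation. The labelled ages were 12, 13 and 14 weeks for controls 1, 2 and 3 and 15, 16 and 17 weeks for CSD 1, CSD 2 and CSD 3, whereas the design text gives 12 weeks for the series. Labelled age and group cannot be told apart. No genetic change or drug is labelled. The way and length of sleep deprivation, the sex of the rats, the presence of marrow, the hour of death and the lighting schedule are not stated in the labels. Whether each library stands for its own animal is not stated either, so the p-values reflect the spread among libraries, which may be technical. In bulk tissue, fewer cells of a type and less RNA per cell cannot be told apart.

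The circadian clock is a feedback loop of transcription that runs in nearly every cell, bone cells included. ARNTL pairs with CLOCK and binds E-box sequences, which drives the genes of the repressors PER1 and PER2, of the nuclear receptor NR1D1 and of the output factor DBP. The PER proteins, with CRY proteins, then inhibit ARNTL and CLOCK, while NR1D1 binds elements called ROREs and represses the Arntl gene. As a result, Arntl peaks at about the opposite time of day from Nr1d1 and Dbp, and the PER genes peak somewhat after these. Per1 also responds directly to glucocorticoid hormones and to cyclic AMP signalling. A single sample therefore depends on the hour at which it was taken.

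Motifs of the kinds bound by clock factors were looked for in the promoters. For the 5 genes the RefSeq promoter table (build GRCr8, not the rn6 build of the counts) gave 6 windows of 300 bases, from 250 before to 50 after a transcription start, 2 of them for Nr1d1. Both strands were searched for the E-box CACGTG, its variant CACGTT, the D-box TTATGTAA, which is the site type of DBP, the RORE core TAGGTCA with its variant TAGGTTA, and the cyclic AMP element TGACGTCA. These motifs do not overlap one another in the windows shown, and TAGGTTA was added after its match near Arntl was seen. All matches found in the 6 windows are shown, 30 bases each, 5′ to 3′ on the strand of the gene, with the match in capitals.
Per2, E-box variant: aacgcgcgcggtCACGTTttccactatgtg
Per2, D-box: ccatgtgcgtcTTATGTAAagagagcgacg
Nr1d1, the upstream window, E-box variant on the opposite strand: cgcatagagctcAACGTGcccgctgctgga
Nr1d1, the other window, E-box: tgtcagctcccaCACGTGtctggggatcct
Arntl, RORE core variant: tggtcggaaagTAGGTTAgtggtgcgacat
Arntl, RORE core: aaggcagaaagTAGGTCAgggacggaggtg

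The sites of Per2 lie at chr9:99497038-99497067 and chr9:99497167-99497196, on the minus strand, with the E-box variant beginning 62 bases and the D-box 192 bases before the start. Those of Nr1d1 lie at chr10:84231969-84231998 and chr10:84229628-84229657, also on the minus strand, 174 and 191 bases before their starts. Those of Arntl lie at chr1:176766265-176766294 and chr1:176766301-176766330, on the plus strand, 52 and 16 bases before the start. The windows of Per1 (chr10:54304126-54304425, plus strand) and Dbp (chr1:105312006-105312305, plus strand) held none of these letters, which says only that they are not in these windows. Of all 33469 promoter windows, 6.42% held CACGTG, 4.83% CACGTT, 0.893% TTATGTAA, 2.63% TAGGTCA, 1.61% TAGGTTA and 1.83% TGACGTCA. A match is a description of the letters and no evidence of binding in femur.

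None of the 5 clock genes passed the test between CSD and control femurs. Levels are given as CPM, the reads of a gene scaled to the gene reads of the library with TMM factors, in the usual unit. The genes were tested with edgeR's quasi-likelihood test over all 13431 genes with Benjamini-Hochberg adjustment, and a call is an adjusted p under 0.05. Of the 5 genes 0 were called, where the background over all tested genes was 0%. At an unadjusted p under 0.05, which 12.5% of all tested genes reached, the count was also 0 of 5. This count became 2 of 5, Dbp and Nr1d1, without control 1, where 2001 of all 13771 tested genes reached it. With limma-voom quality weights it was 2 of 5 for the same genes, where 2962 of 13431 reached it. It was 1 of 5, Dbp, with library totals alone (1991 of 13431 genes) and with no filter (2086 of 19514). Without CSD 1 it was also 1 of 5, Dbp (2726 of 13714). At the adjusted threshold DESeq2 and limma-voom called 0 of 5 as well. Of all genes with an adjusted p, DESeq2 called 1.96%, and limma-voom called 0 of 13431. For none of the 5 genes were the CSD libraries clear of the controls. The groups did not overlap for 16.8% of all tested genes, a share from which 0 of 5 cannot be told apart. The fitted log2 fold changes, CSD minus control, were below 0 for Per2, Dbp and Nr1d1 and above 0 for Per1 and Arntl. Their median was -0.20, which is the Per2 value, beside 0.0026 for all tested genes, of which 49.7% lay below 0. It lay within the quartiles of all tested genes, -0.217 and 0.189, which describe single genes and not a median of 5. Of the single values, Dbp (-0.42) and Nr1d1 (-0.52) lay below these quartiles and Arntl (0.52) above. Per1 (0.12) and Per2 (-0.20) lay within them.

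**Figure D1:**
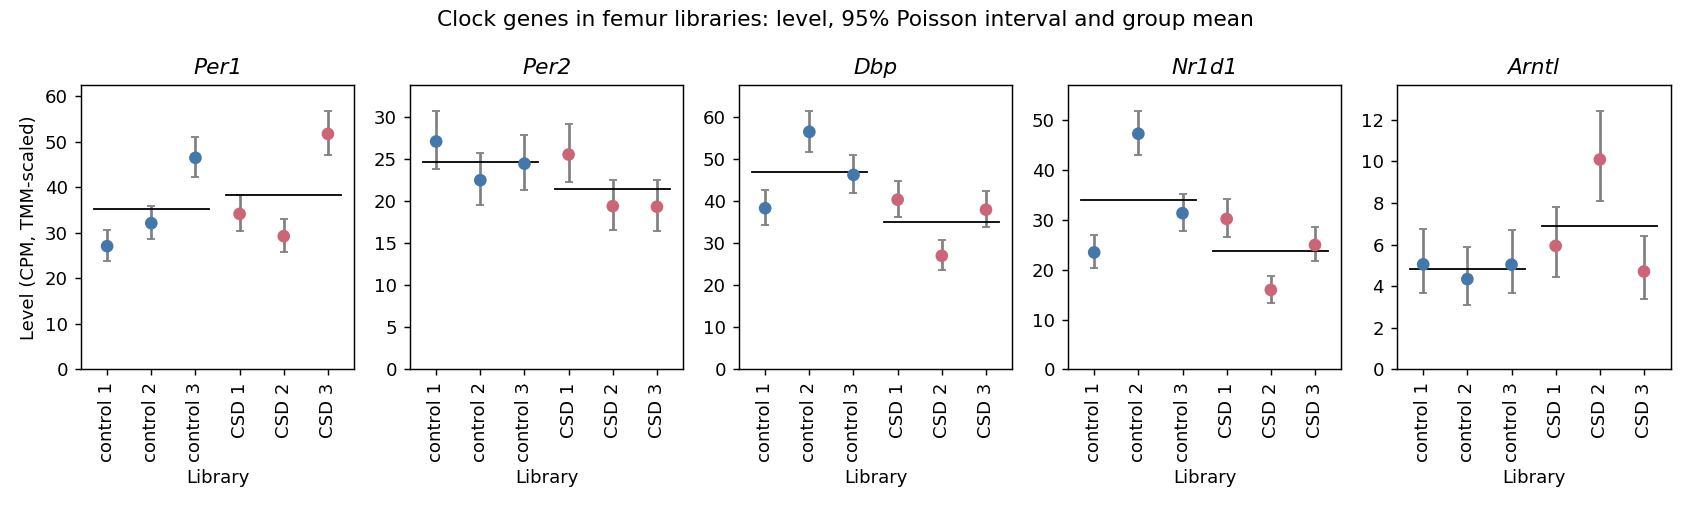
Level of each clock gene (CPM, TMM-scaled, axes from 0) in the 6 libraries, controls in blue and CSD in red. Grey bars are 95% Poisson intervals of the read count and black lines are group means. Controls and CSD overlap for each gene, and CSD 2 stands out in Arntl (10.1 CPM) and control 2 in Nr1d1 (47.3 CPM).

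Of the repressors, Per1 is quickly induced by outside signals. Its level was 27.1, 32.1 and 46.4 CPM in controls 1, 2 and 3 and 34.1, 29.3 and 51.7 CPM in CSD 1, CSD 2 and CSD 3. Control 3 and CSD 3 were the high libraries, and the remaining ones of both groups lay together between 27.1 and 34.1 CPM. Controls averaged 35.2 ± 10.1 CPM and CSD libraries 38.4 ± 11.8 CPM (SD, n = 3). The log2 fold change was 0.12 (SE 0.26, edgeR adjusted p = 0.864). The sign depended on single libraries, with -0.15 without CSD 3, -0.032 without control 1 and 0.38 without control 3. It also turned with library totals in place of TMM factors (-0.0075) and with limma-voom quality weights (-0.044). The 95% interval of the fold, 0.721 to 1.65, includes both a moderately lower and a moderately higher level in CSD.

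Per2 encodes the PER protein that is mutated in an inherited form of early sleep timing in people. It was the steadiest of the 5, at 27.1, 22.5 and 24.4 CPM in controls 1, 2 and 3 and 25.5, 19.4 and 19.3 CPM in CSD 1, CSD 2 and CSD 3. CSD 2 and CSD 3 lay below all 3 controls, but CSD 1 lay above controls 2 and 3. Controls averaged 24.7 ± 2.31 CPM and CSD libraries 21.4 ± 3.56 CPM (SD, n = 3). The log2 fold change was -0.20 (SE 0.17, edgeR adjusted p = 0.621). The interval of the fold ran from 0.668 to 1.13. Without CSD 1 the log2 fold change was -0.36 (adjusted p = 0.259), and it was -0.13 without control 1, -0.13 without CSD 3 and -0.14 without CSD 2. The highest library exceeded the lowest by 1.40-fold for Per2, against 1.91-fold for Per1.

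Dbp encodes a transcription factor of the PAR bZIP family that passes the rhythm on to other genes through D-boxes, and it is among the most strongly cycling transcripts of peripheral tissues. It stood at 38.4, 56.6 and 46.3 CPM in controls 1, 2 and 3 and at 40.4, 27.1 and 38.0 CPM in CSD 1, CSD 2 and CSD 3. The groups overlapped only through control 1, which lay below CSD 1. The mean was 47.1 ± 9.12 CPM for controls and 35.2 ± 7.12 CPM for CSD (SD, n = 3). The log2 fold change was -0.42 (SE 0.20, edgeR adjusted p = 0.422, unadjusted p = 0.0639), the smallest p of the 5 genes. The fold in CSD was 0.747 with an interval of 0.546 to 1.02. Without control 1 the log2 fold change was -0.55 (adjusted p = 0.264), whereas it was -0.27 both without control 2 and without CSD 2 (adjusted p = 0.697 and 0.856).

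Nr1d1 encodes REV-ERB alpha, the nuclear receptor that represses Arntl. Its level was 23.5, 47.3 and 31.3 CPM in controls 1, 2 and 3 and 30.2, 15.9 and 25.0 CPM in CSD 1, CSD 2 and CSD 3. Control 2 was far above and CSD 2 far below the other 4 libraries, which were mixed between the groups. The mean was 34.0 ± 12.1 CPM for controls and 23.7 ± 7.20 CPM for CSD (SD, n = 3). The log2 fold change was -0.52 (SE 0.30, edgeR adjusted p = 0.487), and the fold of 0.696 had an interval of 0.434 to 1.12. Without control 2 the log2 fold change was -0.21 and without CSD 2 it was -0.31, against -0.74 without CSD 1 and -0.73 without control 1. The adjusted p was 0.262 or above in each of these fits. Nr1d1 had the widest range of the 5 genes, 2.96-fold from CSD 2 to control 2.

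Arntl, the activator of the loop, rested on few reads, 45, 41 and 46 in controls 1, 2 and 3 and 51, 88 and 40 in CSD 1, CSD 2 and CSD 3. Its level was 5.05, 4.34 and 5.04 CPM in these controls and 5.94, 10.1 and 4.71 CPM in these CSD libraries. CSD 2 stood apart, while CSD 1 and CSD 3 lay just above and among the controls. The 95% Poisson interval of CSD 2, 8.10 to 12.4 CPM, did not meet that of the next library, CSD 1, at 4.42 to 7.81 CPM. The intervals of all libraries other than CSD 2 overlapped one another, so no order among them was detectable at this depth. Controls averaged 4.81 ± 0.405 CPM and CSD libraries 6.92 ± 2.82 CPM (SD, n = 3). The log2 fold change was 0.52 (SE 0.33, edgeR adjusted p = 0.523). The interval of the fold was 0.856 to 2.41. Without CSD 2 the log2 fold change was 0.14 (adjusted p = 0.958).

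**Figure D2:**
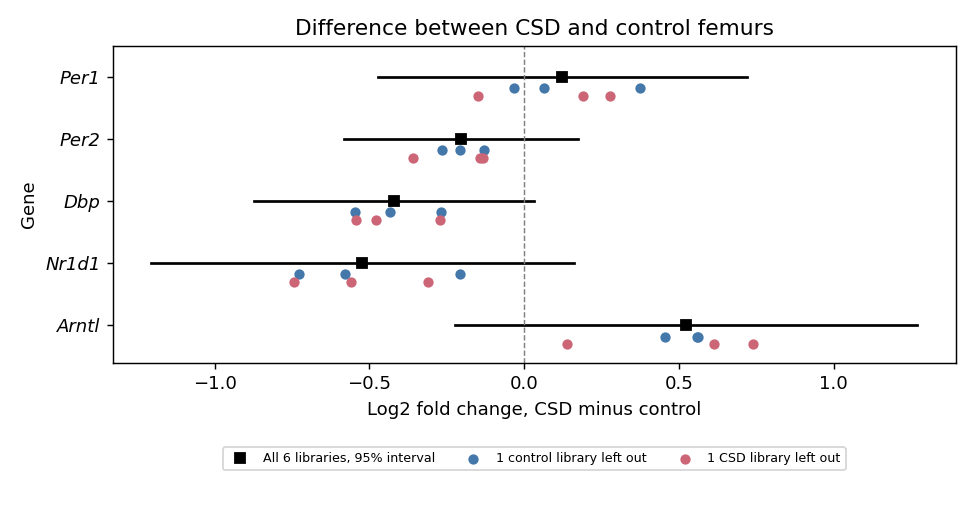
Log2 fold change of each clock gene, CSD minus control. Black squares with lines are the fit to all 6 libraries with its 95% interval, and dots below are fits with 1 library left out (blue, a control; red, a CSD library). Each of the 5 intervals includes 0, and leaving out CSD 2 takes Arntl from 0.52 to 0.14.

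Control 2 and CSD 2 held opposite ends of the range for 3 of the 5 genes. Control 2 had the highest Nr1d1 and Dbp and the lowest Arntl of the 6 libraries, and CSD 2 had the lowest Nr1d1 and Dbp and the highest Arntl. Nr1d1 was 2.96-fold and Dbp 2.09-fold higher in control 2 than in CSD 2, whereas Arntl was 2.32-fold higher in CSD 2. Per1 and Per2 were not part of this contrast, since control 2 exceeded CSD 2 by 1.10-fold and 1.16-fold. Over all tested genes these libraries were at opposite ends for 11.1%. Among them were 3 of the 5 clock genes, Arntl by a rank within counting error. The contrast was noticed in these values and was not tested.

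Within the CSD group, CSD 2 had 1.90 times the mean Arntl level of CSD 1 and CSD 3, and 0.578 times their Nr1d1, 0.690 times their Dbp, 0.682 times their Per1 and 0.865 times their Per2. CSD 2 also had the lowest TMM factor of the 6, 0.912 against a highest of 1.07. Scaled to library totals alone, CSD 2 still had 1.76 times the Arntl and 0.539 times the Nr1d1 of the other two. Within the controls, control 2 had 1.72 times the Nr1d1 and 1.34 times the Dbp of controls 1 and 3, with 0.861 times their Arntl. Among all tested genes control 2 was the highest or lowest library for 43.0%, CSD 3 for 37.9%, CSD 2 for 33.8%, control 3 for 30.8%, and control 1 and CSD 1 for 27.3% each.

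**Figure D3:**
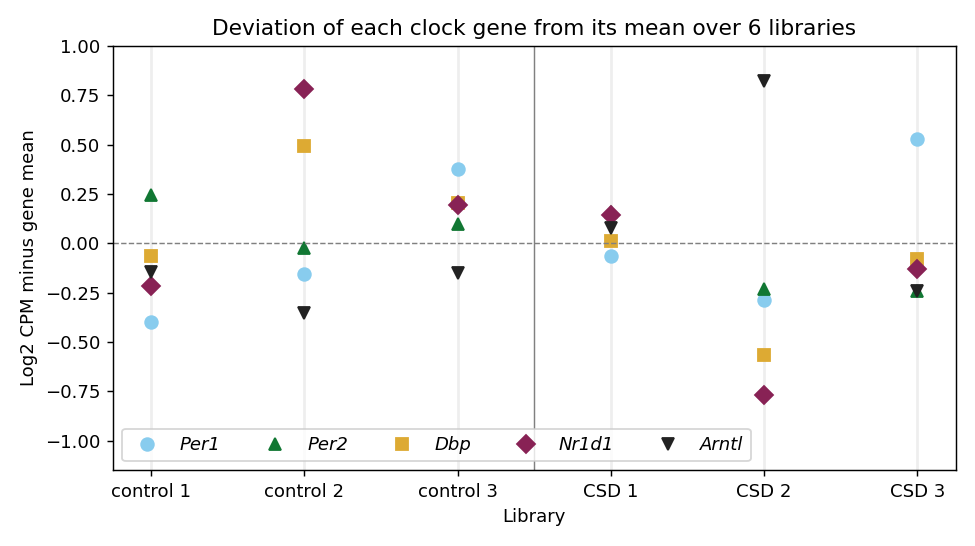
Log2 CPM of each clock gene minus its own mean over the 6 libraries, by library, with the groups separated by the vertical line. In control 2 Nr1d1 (0.78) and Dbp (0.49) lie highest and Arntl (-0.36) lowest, and in CSD 2 the order is turned, with Arntl at 0.82, Dbp at -0.57 and Nr1d1 at -0.77.

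The order of the libraries differed among the 5 genes. Nr1d1 and Dbp ran in nearly the same order, from control 2 through control 3 and CSD 1 to CSD 2. These 2 genes differed only in the places of control 1 and CSD 3, whose Poisson intervals overlapped for both genes. Their ratio changed by no more than 1.41-fold over the 6 libraries, although Nr1d1 itself spanned 2.96-fold. Arntl ran against them in CSD 2, and also in control 2, where its rank was within counting error. Per1 followed neither, being highest in CSD 3 and control 3 and lowest in control 1. Per2 had an order of its own, highest in control 1 and CSD 1 and lowest in CSD 2 and CSD 3. The Poisson intervals of libraries next to each other in that order overlapped. The ratio of Per1 to Per2 spanned 2.66-fold, and on the log2 scale around its mean it ran from -0.64 in control 1 to 0.77 in CSD 3.

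Ratios to Arntl within a library bring the arms of the loop together and do not depend on library scaling beyond the prior count of 2. On the log2 scale around its mean, Nr1d1 over Arntl was -0.072, 1.14 and 0.35 in controls 1, 2 and 3 and 0.063, -1.59 and 0.11 in CSD 1, CSD 2 and CSD 3, a 6.63-fold span. Only control 2 and CSD 2 were far from the mean, and control 1 lay below CSD 1 and CSD 3. Dbp over Arntl spanned 4.70-fold between the same libraries. Per2 over Arntl was 0.39, 0.33 and 0.25 in controls 1, 2 and 3 and 0.081, -1.05 and 0.0046 in CSD 1, CSD 2 and CSD 3. The groups did not overlap in this ratio, 1 of 8 examined, and the 8 share genes with one another. The 16.8% of all tested genes without overlap refers to levels of single genes, and no such share was computed for ratios. The gap lay between control 3 and CSD 1, whose Poisson intervals for Arntl, 3.69 to 6.72 and 4.42 to 7.81 CPM, overlapped.

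**Figure D4:**
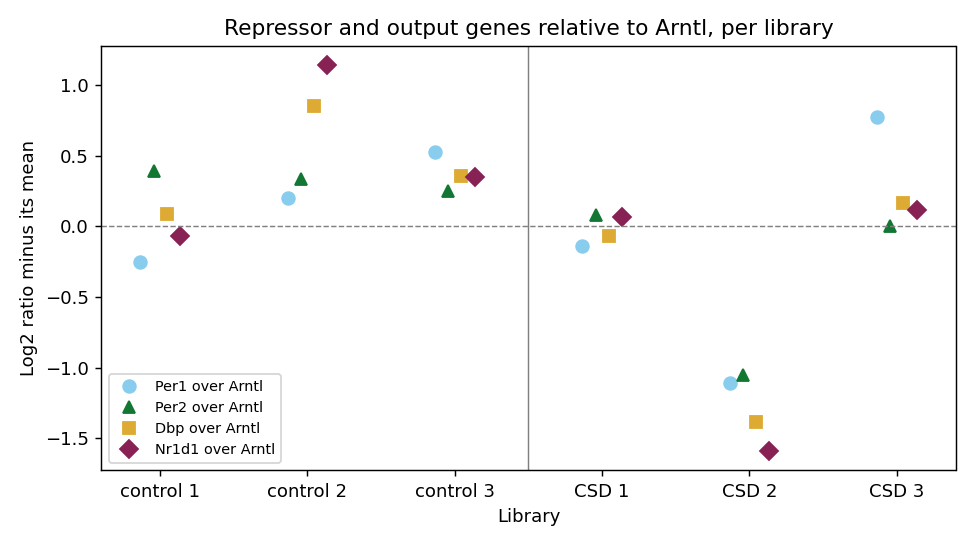
Log2 ratio of Per1, Per2, Dbp and Nr1d1 to Arntl in each library, each minus its mean over the 6 libraries, with the groups separated by the vertical line. All 4 ratios are lowest in CSD 2, between -1.59 and -1.05, and the other 5 libraries show no common order. The 4 ratios share the Arntl value of each library, which in CSD 2 lay 0.82 above its mean, so they are not independent.

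The spread within groups was above the median of all tested genes for 4 of the 5 clock genes. The pooled SD within groups on the log2 CPM scale was 0.49 for Nr1d1, 0.41 for Per1, 0.39 for Arntl, 0.29 for Dbp and 0.19 for Per2, beside a median of 0.23 over all tested genes. Of all tested genes, 84.2% varied no more than Nr1d1, 78.1% no more than Per1, 76.6% no more than Arntl, 62.9% no more than Dbp and 35.8% no more than Per2. Arntl spanned 1.16-fold within controls and 2.14-fold within CSD, whereas Nr1d1 spanned 2.01-fold and 1.89-fold. The genes other than Arntl had 139 to 534 reads in each library, and Arntl 40 to 88. The shares of all tested genes given here were not matched for level.

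Genes with a like pattern were sought by Pearson correlation of log2 CPM over the 6 libraries, as a description, since among 13426 other genes and so few libraries high values are frequent. A correlation above 0.95 was reached by 84 other genes for Per2, 60 for Dbp, 41 for Nr1d1, 16 for Per1 and 10 for Arntl. The gene most like Per2 was ENSRNOG00000023579 (r = 0.996, Spearman's rho = 1), with 50.9, 36.1 and 39.8 CPM in controls 1, 2 and 3 and 45.7, 27.3 and 26.8 CPM in CSD 1, CSD 2 and CSD 3. The gene most like Arntl was ENSRNOG00000053230 (r = 0.980, rho = 0.886), with 44.4 CPM in CSD 2 and 34.4 to 37.2 CPM in the other 5 libraries. Neither passed the test between the groups (edgeR adjusted p = 0.553 and 0.743), and no table at hand names them.

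The libraries held 8366443 to 9572898 reads in genes and 16550 to 17089 detected genes. No gene passed the test between the groups, and the smallest edgeR adjusted p of any gene was 0.124. Other clock genes (such as Clock, Cry1, Nr1d2 and Tef) and markers of bone, marrow and muscle cells were not analysed here, because their symbols could not be paired with IDs. The labelled tissue was for the same reason not checked against its markers.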

How the data were processed

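Raw read counts per Ensembl gene ID were deposited for the 6 libraries in a single table. The authors list the rn6 build, HTSeq 0.12.4 and HISAT2 2.2.1, per the submitters' processing notes. No source used here gives the annotation release or strand setting, so sense and antisense reads of a gene cannot be told apart. Reads set aside as ambiguous were 0.624% to 0.750% of a library. The 5 closing rows that name no gene were left out throughout. They held most reads, with 45.5% to 47.1% assigned to no feature under the unknown strand setting. Genes held 36.2% to 38.2%.

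Genes were filtered with filterByExpr, scaled by TMM and tested with edgeR 4.0.16 (quasi-likelihood, two-sided, no covariate, R 4.3.3). Log2 fold changes used a prior count of 0.125, log2 CPM a prior count of 2. The standard error (SE) is the log2 fold change over the square root of F, and 95% intervals use the fit's degrees of freedom. Poisson intervals cover counting error only. The fit was tested on simulated data. limma 3.58.1 and DESeq2 1.42.0 were alternatives, with other scalings, filters, a replicate block and each library left out.

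The 5 genes, the lists, the motifs and the ratios were chosen with earlier results of these data known. Genes named were the 5 members, the clock list where symbols could be paired with IDs, and the gene most like each member, limited to 2 IDs (for Per2 and Arntl).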

Additional observations from a re-analysis of the deposited data

How the results depend on the processing

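The count of 0 of 5 clock genes called held in all 17 alternatives. Most of these called no gene at all, and the others few of all genes, as given below. The count therefore says little about the clock genes. Per2, Dbp, Nr1d1 and Arntl kept their direction in each of the 17, and Per1 in 13. Per1 turned to -0.0075 with library totals alone, which moved the median of all genes to -0.13, and to -0.044 with limma-voom quality weights. With 1 library left out the log2 fold change ran from -0.15 to 0.38 for Per1, -0.36 to -0.13 for Per2, -0.55 to -0.27 for Dbp, -0.74 to -0.21 for Nr1d1 and 0.14 to 0.74 for Arntl; the cause was not tested. The lowest adjusted p over alternatives was 0.156, for Dbp with limma-voom quality weights (-0.54, unadjusted p = 0.0198; Nr1d1 there had an unadjusted p of 0.0394). In the fit with a replicate block the values were 0.12, -0.21, -0.42, -0.50 and 0.46 for Per1, Per2, Dbp, Nr1d1 and Arntl, and the block changed no call of these genes. Over all genes the block gave 104 calls among 13431, against 0 in the main fit. With no filter there were 112 among 19514. DESeq2 gave 297 among 15117 on all genes, and 278 on filtered genes. Without control 1, CSD 1 or CSD 3 there were 151 among 13771, 230 among 13714 and 73 among 13772. Every other alternative called no gene. The labels do not say that a number marks shared animals or days, and the deviations from group means of libraries numbered alike had correlations of -0.0064, -0.057 and 0.17. The planned tests of the wider clock list, and a level order per length, were not run, as symbols could not be paired with IDs and no transcript length was used here. Arntl rests on 40 to 88 reads per library, against 139 to 534 for the other genes.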
